A study of Mus musculus with 12 samples.

Results

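Glycolysis, the fate of its pyruvate and the pentose phosphate pathway were followed through 34 genes of mouse 3T3-L1 adipocytes in which the zinc finger gene Zfp407 had been knocked down. The genes were given as a list of 35 symbols, in which Pkm2 and Pkm name 1 gene, pyruvate kinase M, present in the table as Pkm. Of the 34 genes, 33 had a row of their own among the 39248 rows of the deposited table, and 32 reached a mean of 1 FPKM (mapped fragments scaled by transcript length in kilobases and by library size) over the 12 libraries. Aldoc, the aldolase of brain, stayed below that at 0.534 ± 0.104 FPKM in control and 0.493 ± 0.342 FPKM in knockdown libraries (SD, n = 6 libraries each). Pgls, the lactonase of the pentose phosphate pathway, shared a row with Fam129c, which read 82.0 ± 4.45 FPKM in control and 80.1 ± 3.56 FPKM in knockdown libraries (SD, n = 6 each) and stands for neither gene alone.

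3T3-L1 is a mouse fibroblast-like line that becomes fat-storing adipocytes in culture, and all 12 libraries came from differentiated cells of this 1 line. The control arm was 6 libraries of cells that had received a control siRNA by electroporation, and the knockdown arm 6 libraries of cells that had received 1 of 2 siRNAs against Zfp407, 3 libraries for each. In both arms 0.75 nmol of siRNA was given 2 days after differentiation, and every library was a separate electroporation. The spread within the control arm is thus that between electroporations, and in the knockdown arm it also holds any difference between the 2 siRNAs. The knockdown columns of the table do not say which siRNA was used, and they are numbered 1 to 6 here and treated as 1 arm.

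Glycolysis splits glucose into pyruvate, making ATP and NADH on the way. Phosphofructokinase catalyses its committed step and is switched on by fructose 2,6-bisphosphate, which the bifunctional enzymes of the PFKFB family make and break down. Pyruvate is reduced to lactate by lactate dehydrogenase and leaves the cell through monocarboxylate transporters, or enters mitochondria, where pyruvate dehydrogenase turns it into acetyl-CoA unless a pyruvate dehydrogenase kinase (PDK) has shut that enzyme off. The oxidative pentose phosphate pathway takes glucose 6-phosphate off the main line and returns NADPH, which fat cells use to build fatty acids, and the non-oxidative branch links pentoses back to glycolysis.

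Promoter letters are shown for Pfkfb1, Pdk1 and G6pdx, the 3 genes that changed most, and for Ldha, lactate dehydrogenase A, as an abundant enzyme of the list that did not pass the test. Each is the most 5′ window that RefSeq gives on GRCm38.p6, from 250 bases before to 50 after a start, read in the gene's direction. Capitals mark ACGTG, the core of hypoxia response elements and, inside CACGTG, of E-boxes, and also GGGCGG (GC box) and CCAAT, each on either strand.
Pfkfb1, chrX:150587195-150587494, plus strand: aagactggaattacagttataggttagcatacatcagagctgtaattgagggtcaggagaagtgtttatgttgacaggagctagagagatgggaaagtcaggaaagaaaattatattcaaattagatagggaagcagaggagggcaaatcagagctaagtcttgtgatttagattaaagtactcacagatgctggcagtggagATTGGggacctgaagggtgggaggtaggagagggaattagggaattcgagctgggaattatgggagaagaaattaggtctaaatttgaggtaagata
Pdk1, chr2:71872974-71873273, plus strand: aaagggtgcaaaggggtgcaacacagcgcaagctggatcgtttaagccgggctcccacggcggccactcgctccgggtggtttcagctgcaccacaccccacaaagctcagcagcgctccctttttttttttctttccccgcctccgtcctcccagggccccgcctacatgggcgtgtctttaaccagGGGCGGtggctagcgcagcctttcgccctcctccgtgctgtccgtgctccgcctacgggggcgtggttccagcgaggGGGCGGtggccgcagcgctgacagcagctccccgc
G6pdx, chrX:74428831-74429130, minus strand: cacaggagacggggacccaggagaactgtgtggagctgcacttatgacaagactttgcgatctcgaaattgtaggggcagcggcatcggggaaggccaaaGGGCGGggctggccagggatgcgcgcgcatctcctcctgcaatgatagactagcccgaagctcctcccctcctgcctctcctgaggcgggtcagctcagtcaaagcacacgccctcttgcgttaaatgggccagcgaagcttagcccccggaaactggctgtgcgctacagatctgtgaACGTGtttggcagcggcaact
Ldha, chr7:46845554-46845853, plus strand: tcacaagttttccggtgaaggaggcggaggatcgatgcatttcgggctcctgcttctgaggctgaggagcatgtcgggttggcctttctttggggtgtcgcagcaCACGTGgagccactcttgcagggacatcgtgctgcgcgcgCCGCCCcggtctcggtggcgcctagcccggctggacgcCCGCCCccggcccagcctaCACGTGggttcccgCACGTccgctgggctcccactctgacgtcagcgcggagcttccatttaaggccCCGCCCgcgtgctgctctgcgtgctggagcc
The Ldha window held 5 matches to ACGTG, of which 4 came from both strands of 2 CACGTG sites, and 3 GC boxes. The Pdk1 window held 2 GC boxes and no ACGTG, the G6pdx window 1 ACGTG, 1 GC box and 1 TGACNNNGC that is not capitalised, and the Pfkfb1 window 1 CCAAT alone. Pfkfb1 has 4 such windows, and which start these cells use was not tested. The last 50 bases of 18 of the 34 windows open a GENCODE M21 transcript of the listed genes. All 34 genes had a window among 27025 promoters of the same length. ACGTG occurred in 13 of the 34 (38.2%) against 19.6% of all promoters, CACGTG, which contains it, in 4 (11.8%) against 7.24%, and GGGCGG in 23 (67.6%) against 35.9%. CCAAT occurred in 15 (44.1%) against 38.0%, TGACNNNGC (the core of antioxidant response elements) in 2 (5.88%) against 12.4%, and TATAAA in none of the 34 against 14.2%. Of the 15 genes that were lower after knockdown, 4 held ACGTG, 9 held GGGCGG and 8 held CCAAT. The 27025 promoters were not limited to genes expressed in these cells, and shares over expressed genes alone were not worked out. Whether any of these shares is particular to the list was not tested. These matches describe letters in a window and no binding was measured.

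Zfp407 itself was 36.9% lower in the knockdown arm, at 1.79 ± 0.208 FPKM against 2.83 ± 0.178 FPKM (SD, n = 6 each; log2 fold change −0.46, limma adjusted p = 8.0e-05), with no overlap between the arms. Depth, read from what 1 fragment was worth in low rows, lay between 0.88 and 1.15 times that of control library 1. The mitochondrial share of summed FPKM was 32.8% in knockdown library 6 and at most 26.3% in the other libraries. Of 8 adipocyte markers, 4 were lower and none was higher after knockdown, where 24.8% of all rows tested were lower, and their summed FPKM ran from 15843 to 19859 in control and from 15015 to 19378 in knockdown libraries. Adipoq (3026 to 2476 FPKM, adjusted p = 0.0168), Fabp4 (9588 to 9413 FPKM, adjusted p = 0.849) and Plin1 (355 to 332 FPKM, adjusted p = 0.213) were present in both arms. Named after their values were seen, Lep (leptin; 9.80 and 4.61 FPKM, log2 fold change −0.96, adjusted p = 0.00211 against a minimum fold of 1.2) and Cd36 (a fatty acid transporter; 821 and 587 FPKM, log2 fold change −0.48, adjusted p = 0.0322 by the same test) were lower without overlap between the arms. The summed level is mostly Fabp4 and shows neither of these falls. Of the 8 markers 6 had a negative log2 fold change. Lpl (2836 FPKM in control and 3052 FPKM in knockdown libraries, log2 fold change 0.10, limma adjusted p = 0.130) leaned higher and did not pass. The same held for Retn (385 and 425 FPKM, log2 fold change 0.14, limma adjusted p = 0.108). Of 10 preadipocyte and fibroblast markers, 2 were lower and none was higher, with sums of 4240 to 4852 in control and 3904 to 4654 in knockdown libraries. Dlk1, a preadipocyte marker, was also high, at 881 FPKM in control and 930 FPKM in knockdown libraries (adjusted p = 0.442). The 4 macrophage markers with rows of their own averaged at most 0.0720 FPKM. In such bulk samples fewer cells of a type and less RNA per cell cannot be told apart, and the part of cell state in the results below was not tested.

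Of the 32 genes, 15 were lower and 1 was higher after knockdown by limma on log2(FPKM + 1), at a Benjamini-Hochberg adjusted p under 0.05 over all 14706 rows tested, and 16 did not pass. Over all rows tested, 24.8% were lower and 11.6% higher. The median log2 fold change of the 32 genes was −0.13, against −0.05 over all rows, and 26 of the 32 values were negative. With each library centred on its median, 10 of the genes were lower and 3 higher, and the shares over all rows also shifted, to 21.4% lower and 15.7% higher. Of the 16 calls, 10 were kept in all 12 fits that left out 1 library, and the other 6 were lost in several of them: Hk1 (highest adjusted p = 0.0967), Pfkl (0.0746), Pfkp (0.0778), Pgk1 (0.0804), Eno3 (0.0997) and Ldhb (0.0856). Against a minimum fold of 1.2, 3 genes remained lower, Pfkfb1, Pdk1 and G6pdx, and none was higher, where 3.69% of all rows were lower and 2.13% higher by that test. Complete separation of the arms was seen in 5 genes on the lower side, Pfkfb1, Pfkfb2, Pdk1, G6pdx and Pgd, and in none on the higher side, against 13.9% and 5.51% of all rows, so that this count lies near that of the table as a whole. The authors' deposited table marks 1 of the genes, Pfkfb1, as significant.

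Small changes need care in this table, because low rows show a shift common to all libraries of an arm. Between the arms the worth of 1 fragment was apart by over 0.01 (log2) in 346 of 1137 low rows (30.4%). The median size in these 346 rows was 0.164, and 0.234 was the 90th percentile of all 1137. Rows further apart than a preset limit were left out before counting, so this share and these sizes may be too small. The same count was 19 of 489 rows (3.89%) within the control arm and 15 of 537 (2.79%) within the knockdown arm. These within-arm counts compared fewer libraries on each side than the count between the arms. A log2 fold change within that size, such as those of Hk1, Pfkfb2, Pgk1, Eno3, Ldhb and Pdk4 below, cannot be told apart from such a shift in a single row. That size is no sharp bound, and Pfkl (−0.25) and Pdk3 (−0.26) lie just beyond it. Whether rows at the levels of these genes carry a shift of that size was not tested.

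**Figure D1:**
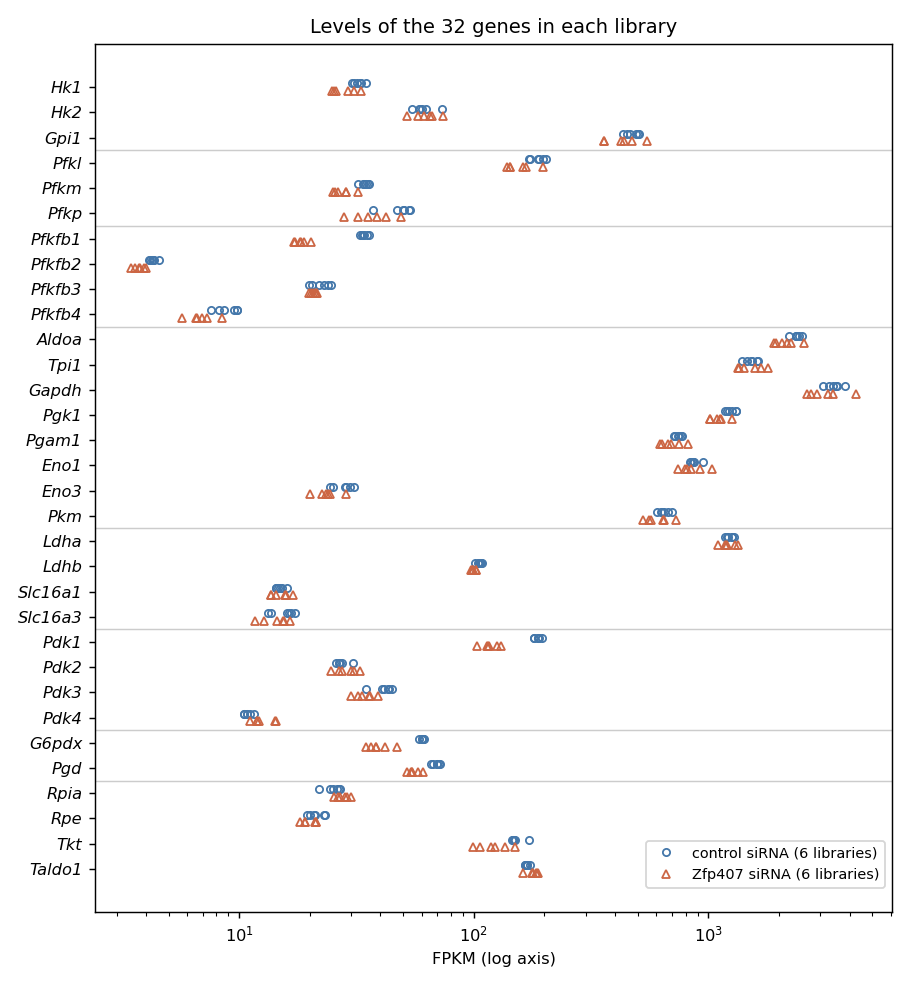
Level of each of the 32 tested genes in every library, in FPKM on a log axis, with control libraries as circles and Zfp407 siRNA libraries as triangles; lines separate the roles in the pathway. Levels ran from about 4.02 FPKM for Pfkfb2 to 3318 FPKM for Gapdh as means over 12 libraries, and the arms stand apart for Pfkfb1, Pfkfb2, Pdk1, G6pdx and Pgd.

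**Figure D2:**
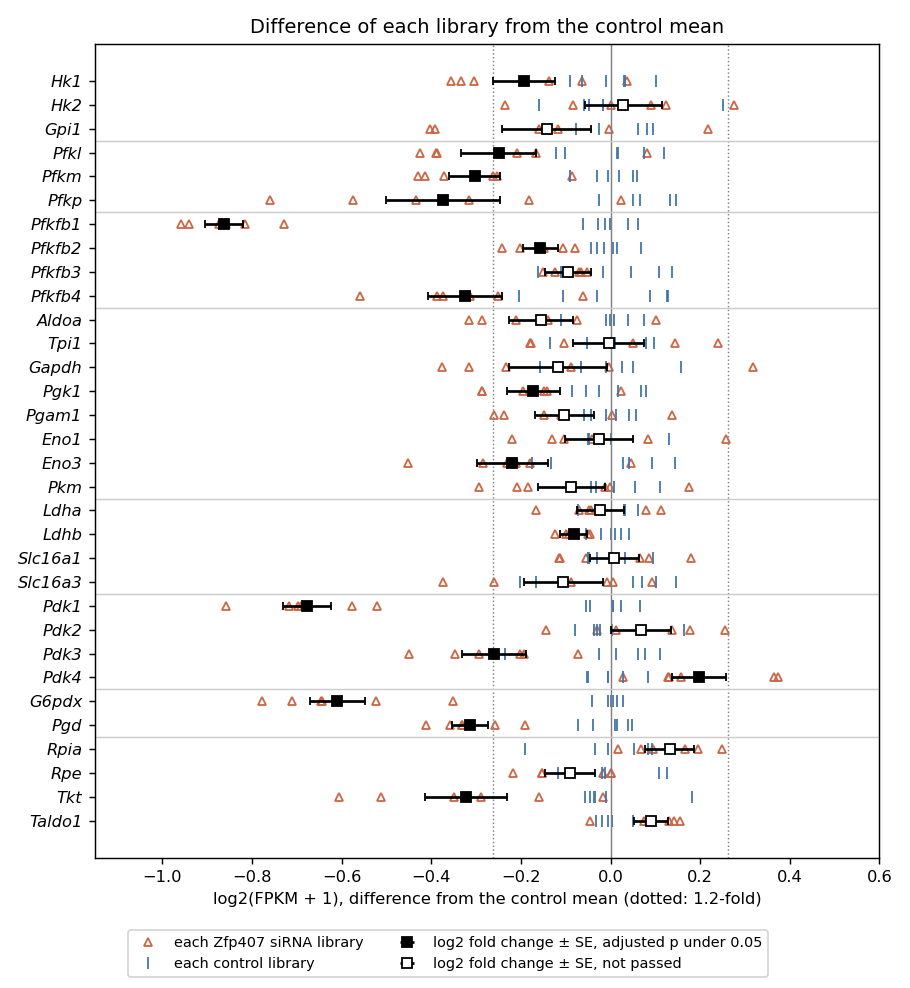
Difference of every library from the control mean on the log2(FPKM + 1) scale, with the log2 fold change ± SE as a square that is filled where the limma adjusted p was under 0.05; dotted lines mark a 1.2-fold change. Pfkfb1 (−0.86), Pdk1 (−0.68) and G6pdx (−0.61) lie beyond the dotted line in all 6 knockdown libraries.

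At the entry of glycolysis, where hexokinases trap glucose as glucose 6-phosphate, 1 of 3 genes was lower. Hk1, the housekeeping hexokinase, was 32.2 ± 1.61 FPKM in control and 28.2 ± 3.32 FPKM in knockdown libraries (SD, n = 6 each; log2 fold change −0.19, limma adjusted p = 0.0458). Hk2, the insulin-regulated hexokinase of muscle and fat, was the more abundant of the pair and stood at 61.3 ± 6.24 FPKM in control and 62.7 ± 7.74 FPKM in knockdown libraries (log2 fold change 0.03, adjusted p = 0.819). Gpi1, the isomerase that makes fructose 6-phosphate, was at 474 ± 30.5 FPKM in control and 433 ± 72.5 FPKM in knockdown libraries (log2 fold change −0.14, adjusted p = 0.283). The arms overlapped for all 3 genes.

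All 3 phosphofructokinase subunits were lower after knockdown, none of them by the test against a minimum fold of 1.2. Pfkm, the muscle-type subunit, read 34.1, 35.8, 34.8, 35.5, 33.6 and 32.2 FPKM in control libraries 1 to 6 and 25.5, 28.6, 25.2, 32.2, 28.5 and 26.3 FPKM in knockdown libraries 1 to 6. Only knockdown library 4 reached the control range, and the means were 34.3 ± 1.34 and 27.7 ± 2.65 FPKM (SD, n = 6 each), with a log2 fold change of −0.30 (SE 0.06, limma adjusted p = 0.00142). Pfkp, the platelet-type subunit, read 49.95, 52.9, 50.5, 53.4, 37.1 and 47.3 FPKM in control and 32.05, 35.4, 28.1, 49.0, 42.3 and 38.5 FPKM in knockdown libraries. Control library 5 was low and knockdown library 4 high, so that the arms overlapped (48.5 ± 6.00 against 37.6 ± 7.49 FPKM; log2 fold change −0.37, SE 0.13, adjusted p = 0.0371). Pfkl, the liver-type subunit and the most abundant of the 3, went from 187 ± 12.4 FPKM in control to 158 ± 22.4 FPKM in knockdown libraries (log2 fold change −0.25, adjusted p = 0.0344), with knockdown library 4 inside the control range. The summed FPKM of the 3 subunits was 269.9 ± 17.9 in control and 223 ± 31.7 in knockdown libraries, and the share of each subunit in that sum overlapped between the arms.

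Pfkfb1, the form of the bifunctional enzyme known from liver and muscle, had the largest change of the 32 genes. It read 35.6, 32.7, 33.4, 33.8, 35.1 and 34.1 FPKM in control libraries and 18.2, 17.1, 18.4, 18.9, 17.3 and 20.2 FPKM in knockdown libraries 1 to 6. Every knockdown library lay far below every control library, with a log2 fold change of −0.86 (SE 0.04, limma adjusted p = 2.4e-08, and adjusted p = 6.4e-07 against a minimum fold of 1.2). The exact permutation test gave an unadjusted p = 0.00216, the smallest that 6 against 6 libraries allow. Every row whose arms do not overlap gets this value (13.9% of all rows lower and 5.51% higher). Here and for Pdk1 and G6pdx below, it thus adds nothing to the separation of the arms. The row lies at chrX:150502475-150643878, as positions on GRCm38 counted from 1, with 7 further rows at the same locus, 5 of them without a gene name. Those 5 averaged between 0.610 and 2.31 FPKM in control and between 0.0462 and 0.508 FPKM in knockdown libraries, 2 of them were tested and 1 was lower (log2 fold change −1.36, adjusted p = 0.00348), and how the authors' estimation divided the reads among these rows was not tested.

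Of the other PFKFB genes, 2 of 3 were lower. Pfkfb4, a hypoxia-induced form, read 8.17, 7.57, 9.48, 8.66, 9.76 and 9.78 FPKM in control and 5.70, 6.93, 6.55, 8.45, 7.30 and 6.61 FPKM in knockdown libraries. Knockdown library 4 overlapped the control range, and limma gave a log2 fold change of −0.32 ± 0.08 (SE; adjusted p = 0.00907). Pfkfb2, the heart form, went from 4.29 ± 0.147 to 3.75 ± 0.197 FPKM without overlap (SD, n = 6 each; log2 fold change −0.16, adjusted p = 0.00800). Pfkfb3, the inducible form with the strongest kinase side, did not pass, at 22.3 ± 1.92 FPKM in control and 20.8 ± 0.568 FPKM in knockdown libraries (log2 fold change −0.09, adjusted p = 0.178). The summed FPKM of the family was 69.6 ± 3.09 in control and 49.8 ± 1.59 in knockdown libraries. Pfkfb1 made up 49.1% of that sum in control and 36.8% in knockdown libraries, and Pfkfb3 31.99% and 41.7%, so that their order was exchanged. Neither of these shares overlapped between the arms. Such shares are tied to each other, so the fall of Pfkfb1 raises the share of Pfkfb3, whose own level did not pass.

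**Figure D3:**
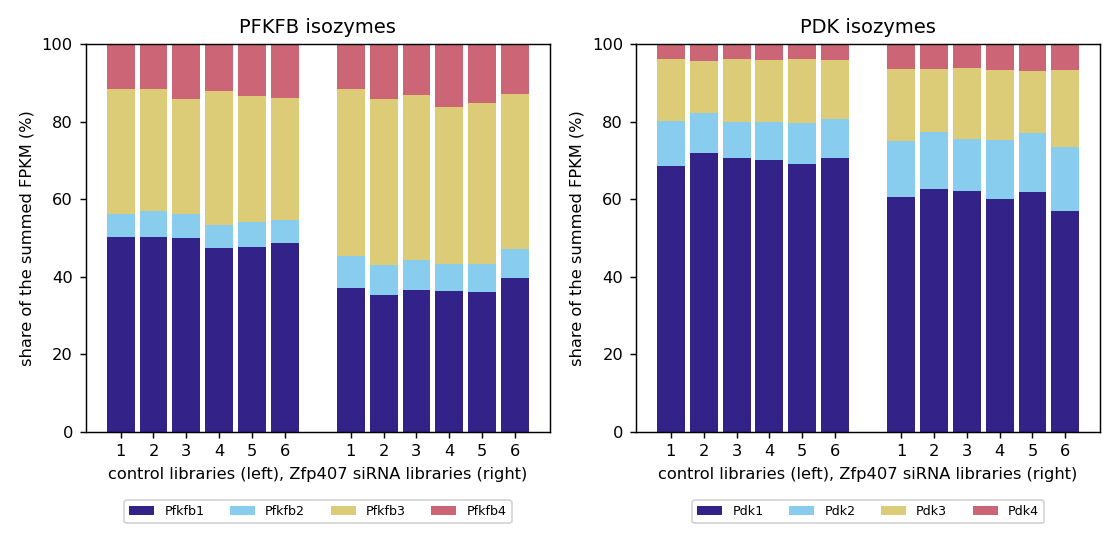
Share of each PFKFB gene (left) and each PDK gene (right) in the summed FPKM of its family, as stacked bars for each control and each Zfp407 siRNA library. Pfkfb1 holds a mean of 49.1% of its family in control and 36.8% in knockdown libraries, and Pdk1 70.2% and 60.7%, with every knockdown library below every control library.

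The chain from aldolase to pyruvate kinase holds the most abundant mRNAs of the list, and 2 of its 8 tested genes were lower. Gapdh, glyceraldehyde-3-phosphate dehydrogenase and a common reference gene, was the highest of all 32 genes. It read 3399.9, 3545, 3819, 3487, 3073 and 3275 FPKM in control and 2752, 2913, 2640.0, 4270.3, 3415 and 3222 FPKM in knockdown libraries 1 to 6. Knockdown library 4 was above and libraries 1, 2 and 3 were below every control library, and limma gave a log2 fold change of −0.12 ± 0.11 (SE; adjusted p = 0.434; 3433 ± 253 against 3202 ± 598 FPKM). The authors' deposited table gives the status FAIL for their own test of Gapdh.

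Aldoa, which splits fructose 1,6-bisphosphate, was at 2376 ± 101 FPKM in control and 2144 ± 237 FPKM in knockdown libraries (SD, n = 6 each; log2 fold change −0.15, limma adjusted p = 0.112). Tpi1, the triose phosphate isomerase, was at 1524 and 1527 FPKM (log2 fold change −0.00, adjusted p = 0.971). Pgk1, phosphoglycerate kinase and an ATP-making step, was lower, from 1246 ± 58.0 FPKM in control to 1108 ± 90.2 FPKM in knockdown libraries (log2 fold change −0.17, adjusted p = 0.0366). Eno3, the muscle enolase, was lower as well, from 27.8 ± 2.49 FPKM in control to 23.8 ± 2.82 FPKM in knockdown libraries (log2 fold change −0.22, adjusted p = 0.0479), while Eno1, which made up 96.9% of the enolase FPKM in control libraries, was at 869 and 858 FPKM (log2 fold change −0.03). Pgam1, the mutase, had a log2 fold change of −0.10 and Pkm, which makes pyruvate, of −0.09, and neither passed. Of the 8 genes of the whole list with a mean of at least 500 FPKM, Pgk1 alone was lower, and their median log2 fold change was −0.10. Of the 24 tested genes under 500 FPKM, 14 were lower and 1 was higher. That level was set after the values were seen, and the split is a description. Over all rows tested, 24.8% were lower and 11.6% higher, and these shares were not worked out on either side of 500 FPKM. Whether the split belongs to the list or to level in any row was not tested.

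**Figure D4:**
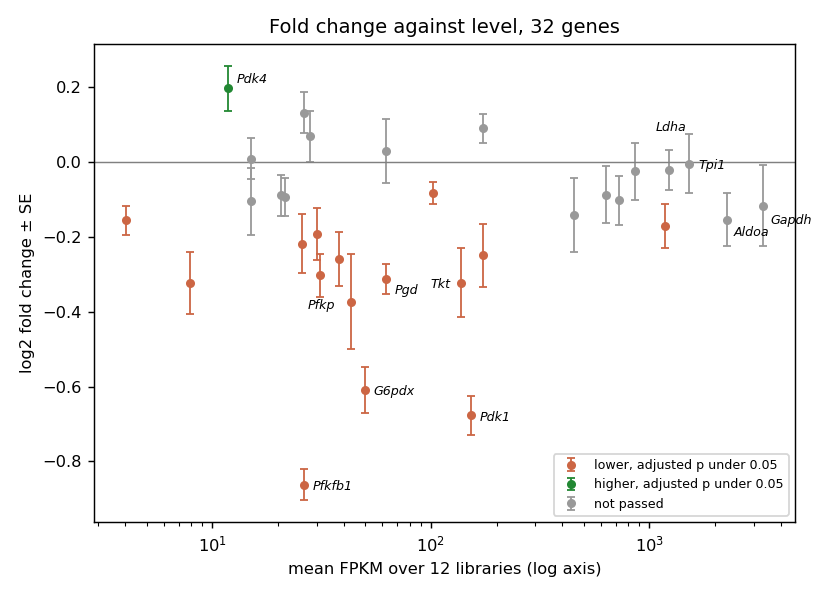
Log2 fold change ± SE of the 32 genes against their mean FPKM over 12 libraries (log axis), coloured by the limma call. The genes at 500 FPKM and above lie between −0.17 and 0 on the log2 scale, and Pfkfb1, Pdk1 and G6pdx stand lowest at intermediate levels.

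Several of these abundant genes have near-identical copies, and their values depend on how reads were divided. Of the 50-base runs in GENCODE M21 transcripts of Pgk1, 53.9% also occur in transcripts of other genes, among them Pgk1-rs7, which was itself listed at 285 FPKM in control and 254 FPKM in knockdown libraries (log2 fold change −0.17, limma adjusted p = 0.0295). The share was 36.2% for Pgam1, 26.0% for Eno1, 25.8% for Pkm, 24.7% for Gapdh (218 other genes, 215 of them pseudogenes), 20.99% for Ldhb and 15.9% for Pfkfb2. All shared runs of Ldhb are in Gm5514, which stood at 46.0 FPKM in control and 49.3 FPKM in knockdown libraries (log2 fold change 0.10, adjusted p = 0.104), in the opposite direction to Ldhb. These values are uncertain for that reason. For Pfkfb1, Pdk1, Pfkp, Pfkfb4, Tkt, Hk1, Hk2, Eno3 and Pdk3 no such run was shared, and for Pgd, G6pdx and Pfkm the shares were 0.217%, 6.46% and 8.83%. The G6pdx runs are shared with G6pd2, which stood at 0.0754 FPKM in control libraries, and those of Pfkm with the antisense gene Gm26513, whose reads cannot be told apart unless counting used strand, of which the sources used here say nothing.

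On the way from pyruvate to lactate 1 of 4 genes was lower. Ldha was at 1233 ± 42.2 FPKM in control and 1216 ± 87.0 FPKM in knockdown libraries (SD, n = 6 each; log2 fold change −0.02, limma adjusted p = 0.769) and made up 92.1% and 92.4% of the lactate dehydrogenase FPKM. Ldhb, the subunit that favours pyruvate formation, was lower by a small amount, from 105.7 ± 2.50 FPKM in control to 99.8 ± 2.11 FPKM in knockdown libraries (log2 fold change −0.08, adjusted p = 0.0429). The transporters Slc16a1 (MCT1; 14.9 and 15.1 FPKM, log2 fold change 0.01) and Slc16a3 (MCT4, the exporter of glycolytic cells; 15.5 and 14.4 FPKM, log2 fold change −0.11, adjusted p = 0.381) did not pass.

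The PDK genes differed among themselves in direction. Pdk1, the hypoxia-induced kinase and the most abundant of the 4, read 180.1, 188, 196, 190.3, 181 and 188 FPKM in control libraries and 116, 115, 113, 130.1, 125 and 103 FPKM in knockdown libraries 1 to 6. All knockdown libraries lay below all control libraries, with a log2 fold change of −0.68 (SE 0.05, limma adjusted p = 1.7e-06, and adjusted p = 1.6e-04 against a minimum fold of 1.2; exact permutation p = 0.00216). The row lies at chr2:71873224-71903858. The authors' deposited table gives it a log2 fold change of −0.68 with p = 0.109 and does not mark it.

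Pdk4, the kinase induced by fasting and fatty acids, was the only gene of the list that was higher. It read 10.4, 11.6, 10.8, 11.1, 10.5 and 10.8 FPKM in control and 12.2, 11.97, 11.1, 14.4, 14.3 and 11.95 FPKM in knockdown libraries. Knockdown library 3 lay inside the control range and the other 5 above it (log2 fold change 0.20, SE 0.06, limma adjusted p = 0.0222), a change that the test against a minimum fold of 1.2 did not call. Pdk3 was lower, from 41.4 ± 3.50 in control to 34.4 ± 3.25 FPKM in knockdown libraries (SD, n = 6 each; log2 fold change −0.26, adjusted p = 0.0133), and Pdk2, the widely expressed form, was at 27.3 ± 1.73 and 28.7 ± 3.03 FPKM (log2 fold change 0.07, adjusted p = 0.460). The summed FPKM of the 4 kinases was 267 ± 6.34 in control and 193 ± 14.0 in knockdown libraries. Pdk1 held 70.2% of it in control and 60.7% in knockdown libraries, Pdk2 10.2% and 14.9%, and Pdk4 4.07% and 6.54%, all 3 without overlap between the arms, while the shares of Pdk3 were 15.5% and 17.9%. Such shares are tied to each other, so the fall of Pdk1 raises the others even where a level did not pass, as for Pdk2.

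Both NADPH-making steps of the pentose phosphate pathway were lower. G6pdx, glucose-6-phosphate dehydrogenase, the rate-limiting entry, read 60.4, 60.6, 60.1, 61.5, 58.6 and 61.0 FPKM in control and 38.3, 38.2, 36.5, 47.1, 41.7 and 34.8 FPKM in knockdown libraries 1 to 6. The control libraries were within 3 FPKM of each other and all knockdown libraries lay below them, with a log2 fold change of −0.61 (SE 0.06, limma adjusted p = 1.4e-05, and adjusted p = 0.00201 against a minimum fold of 1.2; exact permutation p = 0.00216). Its row spans chrX:74393290-74453891, a locus it shares with Ikbkg. Pgd, 6-phosphogluconate dehydrogenase at chr4:149149991-149166771, read 71.6, 69.7, 67.4, 69.8, 71.1 and 65.7 FPKM in control and 53.8, 54.7, 51.8, 60.5, 57.7 and 54.8 FPKM in knockdown libraries. The arms did not overlap (69.2 ± 2.25 against 55.6 ± 3.10 FPKM; log2 fold change −0.31, SE 0.04, adjusted p = 1.1e-04), and the test against a minimum fold of 1.2 did not call this change (adjusted p = 0.798).

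In the non-oxidative branch 1 of 4 genes passed. Tkt, transketolase, read 148, 145, 172, 150.4, 147 and 147 FPKM in control and 99.1, 124, 106, 149.5, 135 and 119 FPKM in knockdown libraries, of which library 4 lay among the controls (152 ± 10.1 against 122 ± 18.6 FPKM; log2 fold change −0.32, SE 0.09, limma adjusted p = 0.0152). Taldo1, transaldolase, was at 168 ± 3.30 and 179 ± 8.99 FPKM (log2 fold change 0.09, adjusted p = 0.0872) and Rpia, ribose 5-phosphate isomerase, at 25.1 ± 1.86 and 27.6 ± 1.73 FPKM (log2 fold change 0.13, adjusted p = 0.0836). With each library centred on its median both passed as higher, with adjusted p = 0.0175 for Taldo1 and 0.0317 for Rpia. Rpe, the epimerase, was at 21.3 and 19.9 FPKM (log2 fold change −0.09).

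**Figure D5:**
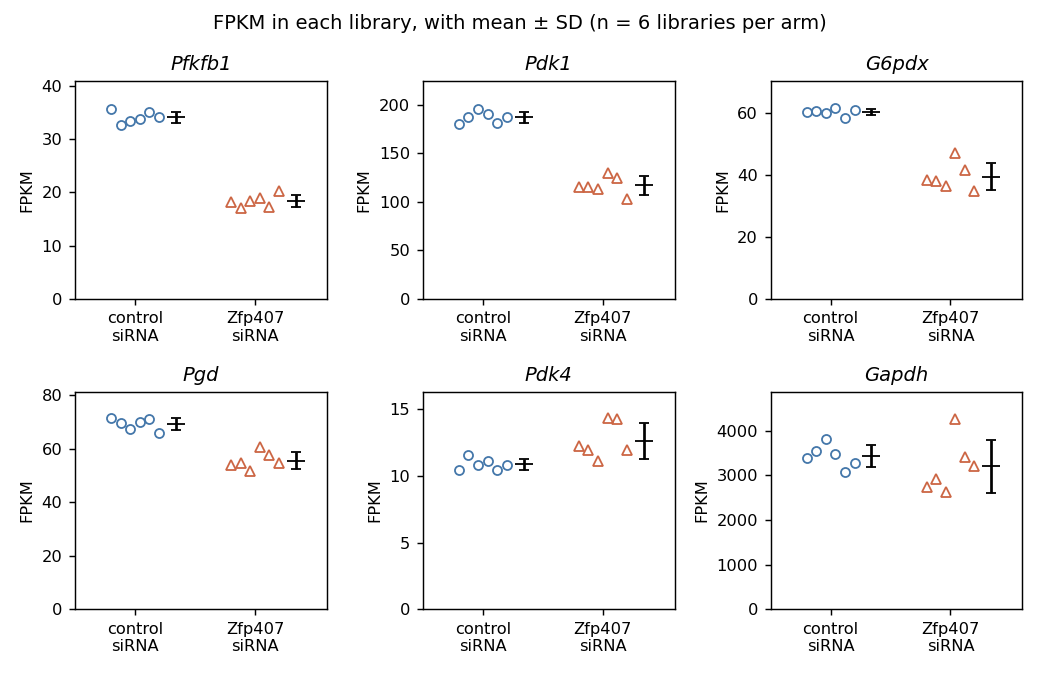
FPKM of 6 genes in each control (circles) and Zfp407 siRNA (triangles) library, with mean ± SD beside them (n = 6 libraries per arm, axes from 0). Pfkfb1, Pdk1, G6pdx and Pgd show no overlap, Pdk4 is higher in 5 of 6 knockdown libraries than in any control library, and Gapdh spreads from 2640.0 to 4270.3 FPKM in the knockdown arm.

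The knockdown libraries differed from each other across the list. The median difference of the 32 genes from their control means was −0.22, −0.15, −0.29, 0.03, −0.09 and −0.16 on the log2 scale in knockdown libraries 1 to 6, where the median over all rows was −0.06, −0.07, −0.07, −0.01, −0.02 and −0.08. In control libraries the same median ran from −0.04 to 0.03. Knockdown library 4 had the highest level of the knockdown arm in 24 of the 32 genes (75.0%) and was the lowest in none, while over all rows tested it was the highest in 26.6%. Library 3 was the lowest in 15 of the 32 genes (46.9%) against 18.5% of all rows. Zfp407 stood at 2.13, 1.93, 1.79, 1.65, 1.604 and 1.62 FPKM in knockdown libraries 1 to 6. Each of libraries 1 to 3 thus stood above each of libraries 4 to 6. The ranking was looked at after the values were seen, and whether libraries 1 to 6 divide by siRNA cannot be told from the table. Pfkfb1, Pdk1, G6pdx and Pgd were below the control range in library 4 as in the others. Without library 4, 16 genes of the list were lower in place of 15, and the count of lower rows over the whole table rose as well.

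Genes around the pathway were taken from 6 lists. Among other isozymes and side steps of glycolysis, 4 of 9 tested genes were lower and 1 was higher. The higher gene was Pgam5 (39.2 FPKM in control and 43.8 FPKM in knockdown libraries, log2 fold change 0.16, limma adjusted p = 0.0234). Whether Pgam5 acts in glycolysis was not tested. G6pc3, a ubiquitous glucose-6-phosphatase, alone passed against a minimum fold of 1.2 and went from 12.6 FPKM in control to 5.13 FPKM in knockdown libraries (log2 fold change −1.16, limma adjusted p = 2.7e-07). Of 18 tested lactate and pyruvate partners, 7 were lower and none higher, and 2 passed against a minimum fold of 1.2. Both of these belong to the pyruvate dehydrogenase complex, the target of the PDK enzymes. Pdhb, of its first component, went from 192 ± 7.37 in control to 127 ± 21.9 FPKM in knockdown libraries (SD, n = 6 each; log2 fold change −0.60, adjusted p = 0.0406 against a minimum fold of 1.2). Dlat, its acetyl-transferring component, went from 106 ± 7.34 FPKM in control to 70.9 ± 10.8 FPKM in knockdown libraries (log2 fold change −0.58, adjusted p = 0.0355 by the same test).

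Of 24 genes on branches from hexose and triose phosphates, 11 were lower and none higher. Of 20 targets and partners of the hypoxia-inducible factors outside glycolysis, 5 were lower and none higher. Epas1, which encodes HIF-2α, was the only gene of the list to pass against the minimum fold, from 5.79 FPKM in control to 3.95 FPKM in knockdown libraries (log2 fold change −0.46, adjusted p = 0.0359 by that test). Of 15 glucose-responsive regulators and targets, 4 were lower and 4 higher, and Nr1h3, the liver X receptor α, went from 51.5 FPKM in control to 32.1 FPKM in knockdown libraries (log2 fold change −0.66, adjusted p = 0.00627 by that test). Of 10 other cytosolic NADPH makers and NRF2 targets, 3 were lower and none higher, and none passed against the minimum fold. Beside the 24.8% of all rows that were lower, the shares were 44.4%, 38.9%, 45.8%, 25.0%, 26.7% and 30.0% in the order given, from few genes each. The median log2 fold changes of these lists were −0.09, −0.10, −0.13, −0.19, −0.01 and −0.23 in the same order, against −0.05 over all rows. Beside the 11.6% that were higher, the share was 26.7% among the glucose-responsive genes (4 of 15), 11.1% among the other isozymes (1 of 9, Pgam5) and 0 in the other 4 lists.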

How the data were processed

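RNA of 12 libraries was analysed as 1 deposited table with an FPKM value per row and library, made by the authors before deposit. Tools listed in the submitters' processing notes, with neither order nor settings, are Cufflinks 2.0.2, SAMtools 0.1.18.0, TopHat2 2.0.5 and Bowtie2 2.0.0.7. For genome build, annotation and strandedness, all not given in the sources used here, nothing was assumed, except that the table's locus column, which matches GRCm38, was read as that build. Per the file headers, the table also holds the authors' log2 fold change, p-value and q-value of their own comparison of the arms, printed only where the authors' deposited table is named. Absolute depth is unknown, since FPKM holds no read totals.

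The rule took, per symbol, the row with the highest mean. From these values, log2(FPKM + 1) was tested with limma 3.58.1 in R 4.3.3 (lmFit, eBayes with an intensity trend), two-sided, over the 14706 rows with a mean of at least 1 FPKM, adjusted by Benjamini-Hochberg and called under 0.05. Rows with no gene name (3036) or with several names (629) in the whole table could stand for no single gene. Fold changes are on the log2(FPKM + 1) scale, which understates those of low genes. Because of the arm-wide shift, limma's treat test against a minimum fold of 1.2 was run as well. Single genes were also compared by an exact two-sided permutation test over the libraries. Isozyme shares are of summed FPKM.

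Values in every library are given for genes that passed with a size of at least a 1.2-fold change, for Gapdh, which is also the most highly expressed gene, and for Pdk4, which was added because it alone was higher. Genes of the other lists are named if they passed against a minimum fold of 1.2, except 1 that is not reported here, and markers in list order. The members and lists were chosen with earlier results of these data known, so their counts have no test. Alternatives were pseudocount 0.1, no filter, a filter at 5 FPKM, centring, quantile normalization, summed rows, and each library left out. Promoters are RefSeq's, and motifs were searched on both strands. A planned comparison of isozyme protein sequences was not run.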

Additional observations from a re-analysis of the deposited data

Results flagged for a closer look

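In 3 of the 64 sets of 6 libraries examined (each of 32 genes in each arm), 1 library stood apart from the other 5 by Dixon's criterion, which chance meets in about 1 of 20 sets. Control library 3 read 950.5 FPKM for Eno1, the main enolase, where the other control libraries lay between 838 and 868 FPKM. The same library read 172 FPKM for Tkt, transketolase, where the others lay between 145 and 150.4 FPKM. Control library 1 read 30.7 FPKM for Pdk2, a pyruvate dehydrogenase kinase, where the others lay between 25.7 and 27.3 FPKM. Eno1 and Pdk2 did not pass the test with or without these libraries, and Tkt was lower without control library 3 as with it.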

How the results depend on the processing

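No paired analysis was possible because the knockdown columns carry no sample number of the labels. The count of genes of the list that were lower, 15 with all libraries, ran from 9 to 16 when 1 library was left out (9 without control library 1, control library 3 or knockdown library 6), and it was 10 without a filter, 13 with a filter at 5 FPKM (Ldhb lost, Pfkfb2 not tested), 10 with centring, 11 after quantile normalization (with Pgam1 gained) and 3 against a minimum fold of 1.2, where 543 rows of the table were lower and 313 higher. The count that were higher, 1 with all libraries, was 3 with each library centred on its median and 3 after quantile normalization (Pdk4, Rpia and Taldo1), 1 to 2 when 1 library was left out (2 without knockdown library 6, with Taldo1), and 0 against the minimum fold. Pfkfb1, Pdk1 and G6pdx were lower against the minimum fold in all 12 fits without 1 library, with centring, after quantile normalization and with a pseudocount of 0.1, alternatives chosen after seeing the data. Of the 16 calls, 11 were also made with centring and 11 after quantile normalization. The count of lower rows over the whole table moved as well. It was 3648 with all libraries, 3146 with centring and 3252 after quantile normalization. Leaving out 1 library lowered both this count and that of the list, except for knockdown library 4, where both rose. Without a filter the count over all rows rose while that of the list fell. Whether the list moved more than the table was not tested.

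Of the 6 calls lost when 1 library was left out, all were also lost with all 12 libraries under other settings: Hk1, Pfkl, Pfkp, Pgk1 and Eno3 without a filter, Hk1, Pfkl, Pgk1, Eno3 and Ldhb with centring, and Hk1, Pfkl, Pfkp, Eno3 and Ldhb after quantile normalization. Hk1 was no longer called without control library 1, 2, 3, 4 or 5 or knockdown library 1, 3, 5 or 6, Pfkl without control library 1, 2, 3 or 4 or knockdown library 1, 3 or 6, and Pfkp without control library 1, 2, 3, 4 or 6 or knockdown library 1, 2, 3 or 6. The same held for Pgk1 without control library 1, 2, 3 or 6 or knockdown library 1, 3, 5 or 6, for Eno3 without control library 1, 3, 5 or 6 or knockdown library 2 to 6, and for Ldhb without control library 1, 2, 3, 5 or 6 or knockdown library 1, 2, 5 or 6. Aldoa and Pgam1 were called lower without knockdown library 4. Signs turned only for genes with a log2 fold change near 0, far from the threshold: with centring Tpi1 was 0.0292, Eno1 0.0079 and Ldha 0.0112, and without 1 library the log2 fold change ran from −0.0206 to 0.0815 for Hk2, −0.0531 to 0.0307 for Tpi1, −0.0825 to 0.0133 for Eno1, −0.0495 to 0.0063 for Ldha and −0.0258 to 0.0330 for Slc16a1. The cause of these shifts was not tested.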
